A study of Caenorhabditis elegans with 6 samples.

Results

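The genes *atl-1*, *atm-1*, *chk-1*, *chk-2*, *hus-1*, *mrt-2*, *hpr-9* and *cep-1*, which code for the kinases and sensors of the DNA replication and damage checkpoint of *Caenorhabditis elegans* and for its p53-like transcription factor, were followed in embryos whose mothers had been depleted of a DNA primase. They were chosen by gene symbol for these roles. All 8 were found among the 19933 genes of the deposited RNA-seq table. The embryos came from hermaphrodites of the wild-type strain N2, with no allele or transgene in either group. The mothers were grown from the first larval stage for 96 h at 20 °C on bacteria carrying either empty vector (EV), the negative control, or an RNAi construct against *pri-1*, which codes for a primase subunit. Each group had 3 libraries, made from eggs scraped off plates after adults and hatched worms had been washed away. Eggs were not staged, each library pooled whole embryos, and the comparison asked how the loss of primase in the mother and her offspring changed the embryonic transcriptome.

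Primase lays down the RNA primers from which DNA polymerase copies DNA, so a shortage of it leaves single-stranded DNA at replication forks. Single-stranded DNA is coated by replication protein A (RPA), which recruits the kinase ATR (ATL-1 in worms), whereas the related kinase ATM (ATM-1) responds mainly to double-strand breaks. A ring-shaped clamp of HUS-1, MRT-2 (the worm RAD1) and HPR-9 (the worm RAD9) is loaded beside the lesion and helps ATR to signal. ATR then activates the effector kinase CHK-1, which slows entry into mitosis, and ATL-1 and CHK-1 are known to set the timing of the earliest embryonic divisions in worms. CHK-2 in worms is best known as a meiotic kinase needed for chromosome pairing and for the breaks that start recombination, and CEP-1 switches on cell death genes after damage in the germ line. These proteins are controlled largely by phosphorylation, which RNA-seq does not measure.

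Values are counts per 1000000 (CPM), the share of a library's reads assigned to a gene, as deposited. Low values in each library were whole multiples of a smallest step, so depth was recovered as 122751282 to 162069400 steps per library, here called reads. Values of 2 steps were more frequent than values of 1 step, so a read pair may count as 2 such reads, which was not tested. A value of 3 reads was worth 0.0185 to 0.0244 CPM. Depth therefore covers every gene described, and the number of libraries limits the precision. The targeted gene *pri-1* stood at 26.9 to 47.2 CPM in EV and 24.3 to 28.7 CPM in *pri-1* RNAi libraries, a difference that was not past the limma test (log2 fold change -0.46 ± 0.29, SE; adjusted p = 0.285), and the groups overlapped. With libraries rescaled by TMM, which lets a set of reference genes rather than the total set the scale, it had 37.3 to 39.4 CPM in EV and 24.1 to 30.7 CPM in *pri-1* RNAi libraries, with no overlap, and edgeR gave -0.63 (adjusted p = 0.0697). Markers of early and of late embryos were present in both groups. The summed level of 15 maternal and early embryonic genes was 655 to 959 CPM in EV and 975 to 1257 CPM in *pri-1* RNAi libraries, and that of 17 genes of differentiated muscle, gut, skin and neurons was 4765 to 7844 and 3615 to 6313 CPM. Muscle genes made up most of the latter sum, so it says little of the other tissues. Gene by gene, 14 of the 17 had a negative log2 fold change and 3 a positive one. Their median was -0.51, against -0.01 over all genes tested. The summed level of 7 yolk protein and adult cuticle genes was 789 CPM in EV replicate 1, against 16.9 to 105 CPM in the other libraries. The paper states that eggs laid by *pri-1* RNAi mothers do not hatch and stop early in embryogenesis, before morphogenesis. Embryo stage and the RNAi treatment cannot be told apart in this design, and in whole embryos fewer cells of a type cannot be told apart from less RNA per cell.

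Of the 8 genes, 1 rose and 0 fell in *pri-1* RNAi embryos. It was *chk-2*. The test was limma on log2(CPM + 0.5), with Benjamini-Hochberg adjustment over 14801 genes that reached 0.5 CPM in at least 3 libraries and a threshold of 0.05, and fold changes on that scale understate the change of low genes. By this test 17.3% of all genes tested were higher and 9.94% were lower, so 1 of 8 is close to the share over all genes. The log2 fold change was positive for 7 of the 8 genes, with *atm-1* the exception, and its median was 0.65, against -0.01 over all genes tested, of which 49.7% were positive. Under median centring of the libraries the median of all genes moved to 0.20, and the estimate of each of the 8 rose as well, as from 0.73 to 0.94 for *atl-1* and from -0.35 to -0.14 for *atm-1*. The groups did not overlap for 2 of the 8 genes, *chk-1* and *chk-2*, as for 45.2% of all genes tested when either direction is counted. edgeR on the recovered reads also called 1 gene higher (*chk-2*) and 0 lower, against 20.2% and 15.5% of the genes it tested. The study describes the replicates of its CPM values as separate experiments, GEO's labels do not say whether they were separate cultures, and p-values measure the spread between these samples.

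**Figure D1:**
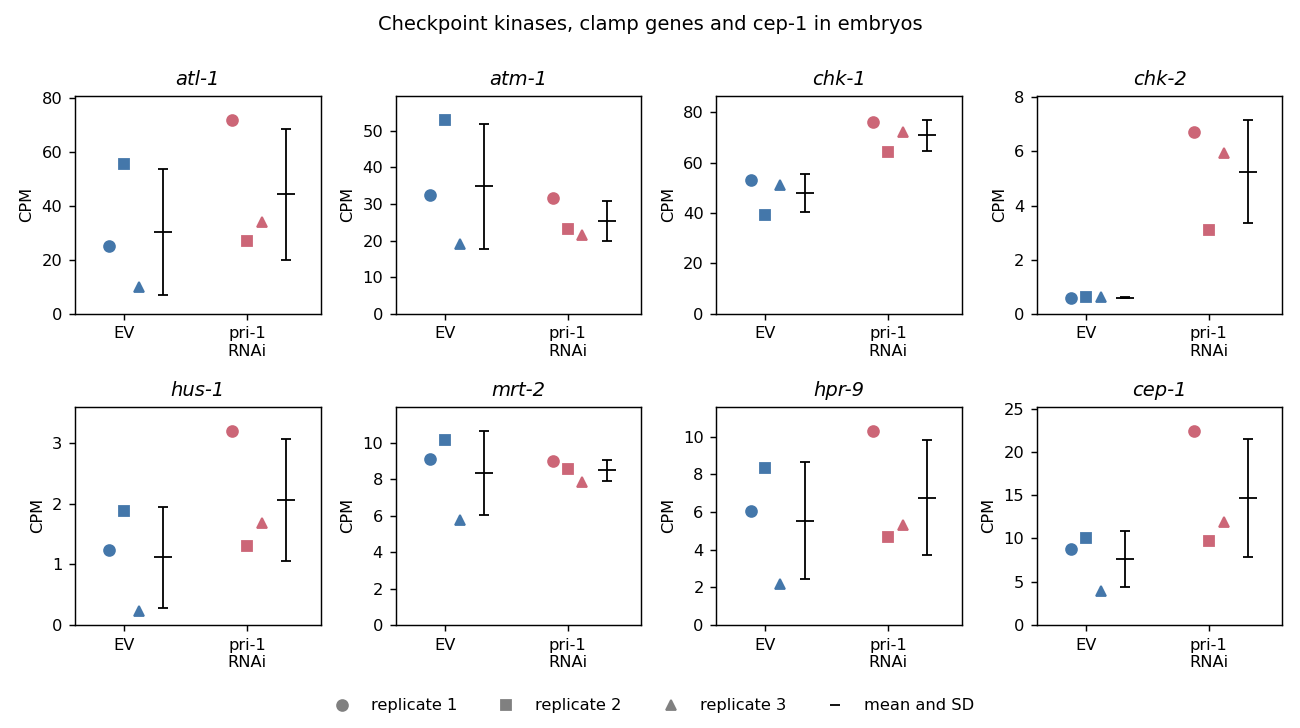
Deposited CPM (vertical axes, each starting at 0) of the 8 genes in the 3 EV libraries (blue) and the 3 *pri-1* RNAi libraries (red), with the mean and SD in black. Only *chk-1* and *chk-2* have separate groups, and *chk-2* goes from 0.587 to 0.612 CPM in EV to 3.10 to 6.73 CPM in *pri-1* RNAi embryos.

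Both effector kinase genes had groups that did not overlap, as did 45.2% of all genes tested, and for *chk-1* this depended on scaling. *chk-2* (WBGene00000499; WBcel235 chromosome V, 19908086 to 19916023, minus strand; 14 exons, 476 codons) had 0.587, 0.612 and 0.607 CPM in EV replicates 1 to 3 and 6.73, 3.10 and 5.94 CPM in *pri-1* RNAi replicates 1 to 3. Every *pri-1* RNAi library was thus far above the EV libraries, whose values hardly differed from each other, and the lowest of the former was 5.06 times the highest of the latter. These values rested on 72, 78 and 93 reads in EV and on 870, 502 and 917 reads in *pri-1* RNAi libraries. The mean rose from 0.602 ± 0.0134 to 5.26 ± 1.91 CPM (SD, n = 3 each), or 8.73-fold, with a log2 fold change of 2.32 ± 0.34 (SE; 95% interval 1.53 to 3.11; limma adjusted p = 0.00286). In an exact permutation test of the 6 values, p was 0.1, the smallest that 3 against 3 allows. edgeR gave a log2 fold change of 2.86 (adjusted p = 0.00218). Leaving out *pri-1* RNAi replicate 3 ended the limma call, at a log2 fold change of 2.21 (adjusted p = 0.0509), whereas the other 5 fits without a library kept it, with log2 fold changes of 2.13 to 2.63. The transcribed region of *chk-2* overlaps a non-coding RNA, Y60A3A.29. The library kit marked strand, but how reads of the overlap were divided between the genes is not given in the sources used here.

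A rise from such a low level was not rare in these libraries. Of all 19933 genes, from 1556 to 2345 per library were listed at 0 in EV and 351 to 631 in *pri-1* RNAi libraries. Among the 394 genes with at least 0.5 CPM in every EV library and an EV mean of at most 1.2 CPM, a range chosen after the values of *chk-2* were seen, 132 (33.5%) were higher and 24 were lower by the limma test, and their median log2 fold change was 0.54. A larger log2 fold change than that of *chk-2* was found for 38 of them (9.64%). Over all 14801 genes tested, 824 (5.57%) had a smaller p-value. Genes of the male germ line were also low in EV. The summed level of 7 sperm genes was 1.61 to 3.59 CPM in EV and 14.0 to 30.3 CPM in *pri-1* RNAi libraries. Most of the latter was *fer-1*, with a mean of 15.3 ± 6.42 CPM, and without it the sums were 1.27 to 2.64 CPM in EV and 4.80 to 8.29 CPM in *pri-1* RNAi libraries. Of the 7, *gsp-4* alone reached 0.5 CPM in every EV library, and it rose from 0.624 ± 0.0809 to 1.57 ± 0.215 CPM (limma adjusted p = 0.0238), whereas *spe-9*, *fer-1* and *spe-26* met the filter only through the *pri-1* RNAi libraries. Of the 7 only *spe-11* was at 0 in any library, EV replicate 3. The part of sperm RNA, or of any other cell type, in the level of *chk-2* was not tested.

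*chk-1* (WBGene00000498; chromosome V, 3757153 to 3759469, minus strand; 5 exons, 503 codons) was among the more abundant of the 8. It had 52.9, 39.1 and 51.3 CPM in EV and 76.2, 64.2 and 72.1 CPM in *pri-1* RNAi libraries. The groups did not overlap, and EV replicate 2 was the lowest library. The means were 47.8 ± 7.56 and 70.8 ± 6.10 CPM, a ratio of 1.48, and the log2 fold change of 0.57 ± 0.23 (SE; 95% interval ± 0.53) did not pass the limma test after adjustment over all genes (limma unadjusted p = 0.0370, adjusted p = 0.102). The separation depended on scaling. Under TMM *chk-1* had 50.6, 30.9 and 73.6 CPM in EV and 66.2, 68.7 and 71.5 CPM in *pri-1* RNAi libraries, so that EV replicate 3 became the highest of the 6. edgeR gave a log2 fold change of 0.31 (adjusted p = 0.488).

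Neither apical kinase passed the test. *atl-1*, the worm ATR (WBGene00000226; chromosome V, 9634849 to 9645595, minus strand; 19 exons, 2531 codons), had 25.35, 55.8 and 9.88 CPM in EV and 72.1, 27.0 and 34.1 CPM in *pri-1* RNAi libraries. EV replicate 2 lay above 2 of the *pri-1* RNAi libraries, and the EV values spanned a 5.65-fold range. The log2 fold change was 0.73 ± 0.63 (95% interval -0.74 to 2.20; limma adjusted p = 0.437; exact permutation p = 0.5), and the estimate ranged from 0.10 without EV replicate 3 to 1.32 without EV replicate 2. *atm-1*, the worm ATM (WBGene00000227; chromosome I, 183364 to 208384, plus strand; 28 exons, 2378 codons), was the only one of the 8 with a lower mean in *pri-1* RNAi libraries. It had 32.4, 53.0 and 19.2 CPM in EV and 31.6, 23.1 and 21.5 CPM in *pri-1* RNAi libraries, so that all 3 of the latter fell inside the range of the former. Under TMM the groups came apart, though by less than the printed digits, with 31.0, 41.9 and 27.5 CPM in EV and 27.5, 24.7 and 21.3 CPM in *pri-1* RNAi libraries. Its log2 fold change was -0.35 ± 0.40 (95% interval -1.27 to 0.57; limma adjusted p = 0.556), and it became 0.01 without EV replicate 2. The intervals of both kinases hold changes of over 1 on the log2 scale, so a change of that size cannot be told from none with these libraries.

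The 3 clamp genes were lower in abundance and did not pass the test either. *hus-1* (WBGene00002042; chromosome I, 3698102 to 3699300, plus strand; 6 exons, 277 codons) had 1.24, 1.88 and 0.235 CPM in EV and 3.20, 1.31 and 1.68 CPM in *pri-1* RNAi libraries. EV replicate 3 was far below the others, on 36 reads, and EV replicate 2 lay above 2 *pri-1* RNAi libraries. The means of 1.12 ± 0.830 and 2.06 ± 1.00 CPM gave a log2 fold change of 0.75 ± 0.49 (95% interval -0.38 to 1.88; limma adjusted p = 0.295), and it was 0.26 without EV replicate 3. *mrt-2* (WBGene00003417; chromosome III, 11746766 to 11750175, plus strand; 8 exons, 267 codons), which is also needed to maintain telomeres, had 9.13, 10.2 and 5.75 CPM in EV and 9.01, 8.60 and 7.88 CPM in *pri-1* RNAi libraries. All 3 *pri-1* RNAi values fell within the EV range, and the means of 8.35 ± 2.31 and 8.50 ± 0.575 CPM differed by far less than the spread. Its log2 fold change of 0.06 had a 95% interval of -0.74 to 0.86 (limma adjusted p = 0.921), and it was -0.17 without EV replicate 3. *hpr-9* (WBGene00001997; chromosome III, 10621551 to 10626398, plus strand; 12 exons, 521 codons) had 6.04, 8.34 and 2.19 CPM in EV and 10.3, 4.69 and 5.32 CPM in *pri-1* RNAi libraries. Again EV replicate 3 was lowest and *pri-1* RNAi replicate 1 highest, and the groups overlapped. The log2 fold change was 0.36 ± 0.53 (95% interval -0.89 to 1.60; limma adjusted p = 0.668), and it was -0.14 without EV replicate 3. The *hpr-9* region overlaps the sugar transporter gene *swt-4*, a tRNA and a non-coding RNA, and its value in 1 of the 6 libraries was not a whole number of reads, whereas those of the other 7 genes were whole in all 6.

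*cep-1*, the p53-like gene (WBGene00000467; chromosome I, 8324286 to 8328859, plus strand; 11 exons, 644 codons), had 8.81, 10.02 and 3.93 CPM in EV and 22.4, 9.71 and 11.9 CPM in *pri-1* RNAi libraries. The groups overlapped by a single pair, *pri-1* RNAi replicate 2 lying at 0.970 times EV replicate 2. The means of 7.59 ± 3.22 and 14.7 ± 6.79 CPM had a ratio of 1.93, and the log2 fold change of 0.91 ± 0.48 (95% interval -0.20 to 2.02) missed the limma threshold (adjusted p = 0.200). Without EV replicate 3 it was 0.53. It passed under 4 of the 19 alternatives computed for it, among them the block by library number, whose estimate rests on part of the libraries. Under TMM its groups no longer overlapped, with 8.43, 7.92 and 5.65 CPM in EV and 19.5, 10.4 and 11.8 CPM in *pri-1* RNAi libraries, and edgeR gave a log2 fold change of 0.81 (adjusted p = 0.0906).

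**Figure D2:**
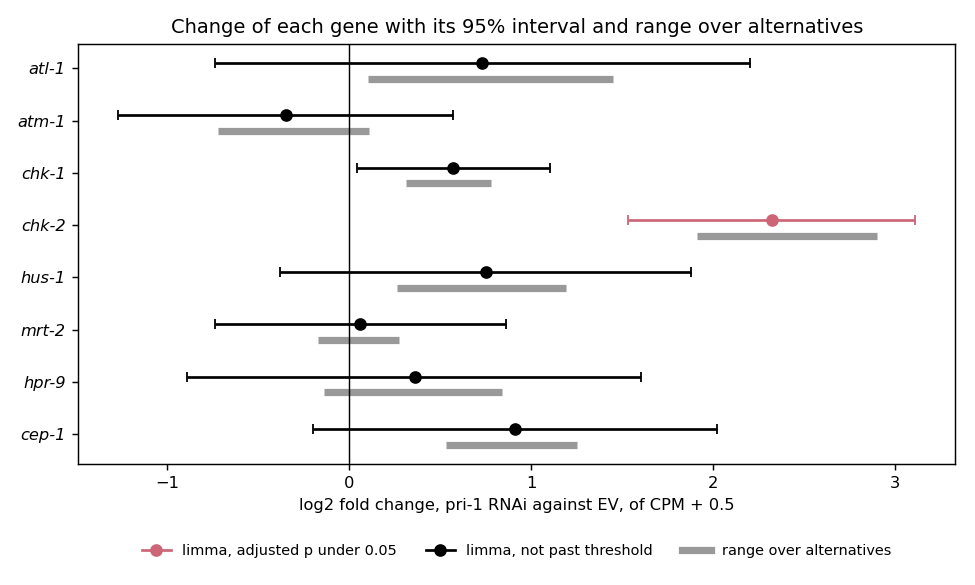
Log2 fold change of each gene, *pri-1* RNAi against EV on the CPM + 0.5 scale (points), with its 95% interval from limma (thin bars) and the range of the estimate over the alternative settings (grey bars). Of the 8 intervals only those of *chk-1* (from 0.04) and *chk-2* (from 1.53 to 3.11) leave out 0, and the grey bars of *atm-1*, *mrt-2* and *hpr-9* cross 0.

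Per kilobase of the longest transcript, *chk-1* was the highest of the 8 in either group, at 28.4 ± 4.49 CPM per kb in EV and 42.1 ± 3.63 CPM per kb in *pri-1* RNAi libraries. The clamp gene *mrt-2* followed at 6.93 ± 1.92 and 7.05 ± 0.477 CPM per kb, and its range did not reach that of *chk-1* in either group. In EV embryos the order below them was *atm-1* (4.60 ± 2.25), *atl-1* (3.91 ± 3.01), *hpr-9* (3.18 ± 1.79), *cep-1* (2.69 ± 1.14) and *hus-1* (1.21 ± 0.901 CPM per kb), and the ranges of each neighbouring pair from *mrt-2* to *hus-1* overlapped. *chk-2* came last at 0.238 ± 0.00528 CPM per kb, with a range below that of *hus-1*. In *pri-1* RNAi embryos the order was *atl-1* (5.72 ± 3.12), *cep-1* (5.20 ± 2.41), *hpr-9* (3.90 ± 1.77), *atm-1* (3.35 ± 0.719), *hus-1* (2.23 ± 1.09) and *chk-2* (2.08 ± 0.755 CPM per kb), and there *chk-2* and *hus-1* overlapped, as did every other neighbouring pair below *chk-1*.

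The libraries of a group differed from each other in much the same order for most of these genes. EV replicate 2 was highest and replicate 3 lowest for 6 of the 8, all but *chk-1* and *chk-2*, and 55.8% of all genes tested had this order. *pri-1* RNAi replicate 1 was the highest of its group for 8 of 8, as for 57.4% of all genes, and the order replicate 1, then 3, then 2 held for 6, against 42.9% of all genes. The spread within EV, as the highest over the lowest library, was 8.02 for *hus-1*, 5.65 for *atl-1* and 3.80 for *hpr-9*, and the median over the 13541 genes that averaged 1 CPM or more was 2.05. *chk-2* varied least, at 1.04, and *chk-1* was next at 1.35. Part of the shared order went with the scale of the libraries. TMM factors were 1.045, 1.265 and 0.697 in EV and 1.152, 0.935 and 1.008 in *pri-1* RNAi libraries, and after this rescaling the EV order held for 4 of the 8 (33.6% of all genes) and the *pri-1* RNAi order for 4 (27.4%). The steady EV level of *chk-2* depended on scaling too, since its highest over lowest ratio became 1.80 under TMM, above the 1.09 of *mrt-2*, the 1.49 of *cep-1* and the 1.53 of *atm-1*.

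**Figure D3:**
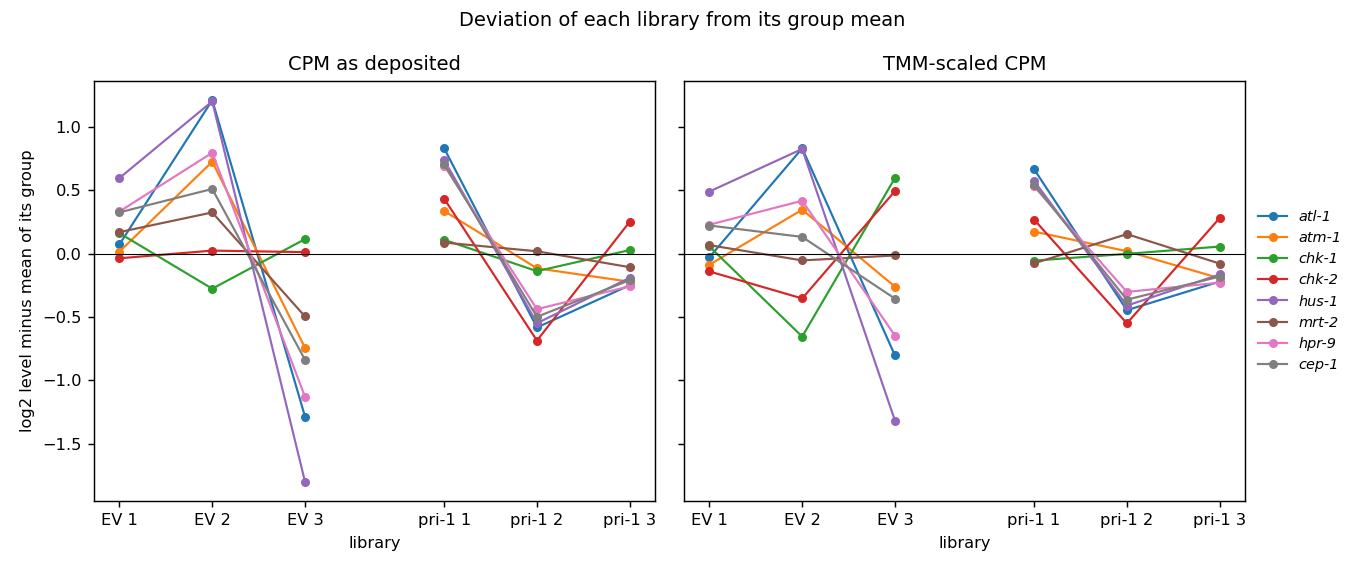
Deviation of each library from its group mean, in log2 units (vertical axis), for the 8 genes in the 6 libraries (horizontal axis), with CPM as deposited on the left and after TMM rescaling on the right. On the left most lines peak at EV replicate 2 and drop at EV replicate 3, and within the *pri-1* RNAi group every line is highest at replicate 1, while on the right the order is shared by fewer genes.

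Genes that act with these 8 were taken from 5 lists drawn up by role. Of their 59 genes 57 were tested, 11 rose, 0 fell and 46 did not pass, and the median log2 fold change was 0.43. Over all genes tested 17.3% were higher and 9.94% were lower, the shares against which each list count stands. Without overlap of the groups, 16 of the 57 lay above EV and 2 below. Over all genes tested 45.2% had no overlap in either direction. Every call of these lists was lost in at least 2 of the 6 fits that left out a library, fits in which the number of genes called higher over the whole table ranged from 295 to 2862. By edgeR *brd-1*, *wee-1.3*, *egl-1* and *syp-1* passed as well, and the other 7 did not (adjusted p from 0.0513 to 0.300).

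Of 14 partners of the checkpoint kinases, 2 rose (*rpa-2* and *brd-1*), against 17.3% of all genes, and the median log2 fold change was 0.46. *rpa-2*, which codes for a subunit of RPA, had 170, 184 and 216 CPM in EV and 329, 295 and 345 CPM in *pri-1* RNAi libraries, with no overlap. Its log2 fold change was 0.77 ± 0.19 (limma adjusted p = 0.0228), which did not pass under TMM (0.69, adjusted p = 0.149) or median centring (0.98, adjusted p = 0.105). The large RPA subunit gene *rpa-1* went from 94.0 ± 28.7 to 181 ± 69.1 CPM without passing (0.92, limma adjusted p = 0.0861). *brd-1*, which codes for the partner of the BRCA1 protein BRC-1, had 26.1, 33.6 and 16.7 CPM in EV and 74.6, 42.4 and 60.9 CPM in *pri-1* RNAi libraries (1.22 ± 0.34, limma adjusted p = 0.0344). Without EV replicate 1 or any 1 of the *pri-1* RNAi replicates, *rpa-2* and *brd-1* lost their calls, with limma adjusted p-values from 0.0520 to 0.181. The nuclease gene *mre-11* had means of 6.52 ± 3.72 and 20.7 ± 14.0 CPM with overlapping groups (limma adjusted p = 0.103). Of genes whose proteins load the clamp or help ATR to signal, those named here did not pass either. They were *hpr-17*, the worm RAD17 (log2 fold change 0.13, limma adjusted p = 0.804), *clsp-1*, the worm Claspin (-0.08, adjusted p = 0.948), and *mus-101*, the worm TopBP1 (0.66, adjusted p = 0.280). The sign of *clsp-1* turned under 6 of the alternatives and that of *hpr-17* under 3.

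Downstream of CHK-1, 3 of 10 tested cell cycle genes rose and 0 fell, against 17.3% and 9.94% of all genes. Their median log2 fold change was 0.31. In this list edgeR called 1 gene higher and 1 lower, and DESeq2 called 1 higher and 2 lower. *wee-1.3*, an inhibitory kinase of CDK-1, had 37.3, 26.6 and 23.5 CPM in EV and 88.8, 47.4 and 60.1 CPM in *pri-1* RNAi libraries (1.13 ± 0.32, limma adjusted p = 0.0331). *cdk-1*, which codes for the mitotic kinase itself, rose from 96.1 ± 10.6 to 215 ± 57.7 CPM (1.13 ± 0.25, limma adjusted p = 0.0138), and the Polo-like kinase gene *plk-1* rose from 115 ± 29.1 to 251 ± 54.9 CPM (1.13 ± 0.27, limma adjusted p = 0.0188). All 3 had separate groups, and all 3 calls were lost without EV replicate 1, *pri-1* RNAi replicate 1 or *pri-1* RNAi replicate 3, with limma adjusted p-values from 0.0559 to 0.161. The call of *plk-1* was also lost under TMM (adjusted p = 0.0721) and median centring (adjusted p = 0.0551). *cdc-25.1*, which codes for a phosphatase that removes the inhibitory mark of WEE-1.3 and that CHK1 restrains in other animals, had 34.7, 31.2 and 30.1 CPM in EV and 22.3, 21.0 and 17.8 CPM in *pri-1* RNAi libraries. Its groups did not overlap and lay the other way round from those of *wee-1.3*, but the log2 fold change of -0.64 ± 0.25 did not pass (limma adjusted p = 0.0955), while edgeR gave -0.87 (adjusted p = 0.0483).

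Among targets and regulators of CEP-1, 2 of 11 tested genes rose (*egl-1* and *fsn-1*) and 0 fell, against 17.3% and 9.94% of all genes. Their median log2 fold change was 0.21. *egl-1*, the cell death activator that CEP-1 induces in the germ line, had 10.6, 8.74 and 9.55 CPM in EV and 33.9, 23.6 and 39.8 CPM in *pri-1* RNAi libraries. The groups were well apart, with means of 9.64 ± 0.945 and 32.5 ± 8.20 CPM, a 3.37-fold rise (log2 fold change 1.67 ± 0.31, 95% interval 0.96 to 2.39, limma adjusted p = 0.00689; edgeR 1.51, adjusted p = 0.0106). The call was lost without *pri-1* RNAi replicate 1 (1.63, limma adjusted p = 0.0592) and without replicate 3 (1.51, adjusted p = 0.0956). *ced-13*, the other cell death gene known as a CEP-1 target, was too low for the limma test. It was at 0.0815, 0.173 and 0.0913 CPM in EV and 0.735, 0.506 and 0.343 CPM in *pri-1* RNAi libraries, again with no overlap. The ratio of its means was 4.59, and edgeR, whose filter kept it, gave a log2 fold change of 2.02 (adjusted p = 0.0177). The EV libraries alone did not meet that filter. *ced-13* passed it only with the *pri-1* RNAi libraries, where it is high, so the edgeR value is a description only. *egl-1* is also used by developmental cell deaths that do not need CEP-1, and the part of *cep-1* in either change was not tested. *fsn-1*, which codes for an F-box protein that limits CEP-1, rose from 118 ± 19.3 to 256 ± 46.1 CPM (1.11 ± 0.23, limma adjusted p = 0.0114). Its call was lost without EV replicate 1 (adjusted p = 0.0584) or *pri-1* RNAi replicates 1 (0.0739) or 3 (0.114). *ape-1*, the worm member of the p53-inhibiting iASPP family, had an estimate of 0.84 (limma adjusted p = 0.0674), and *gld-1*, a translational repressor of *cep-1* in the germ line, one of 1.24 (adjusted p = 0.122).

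**Figure D4:**
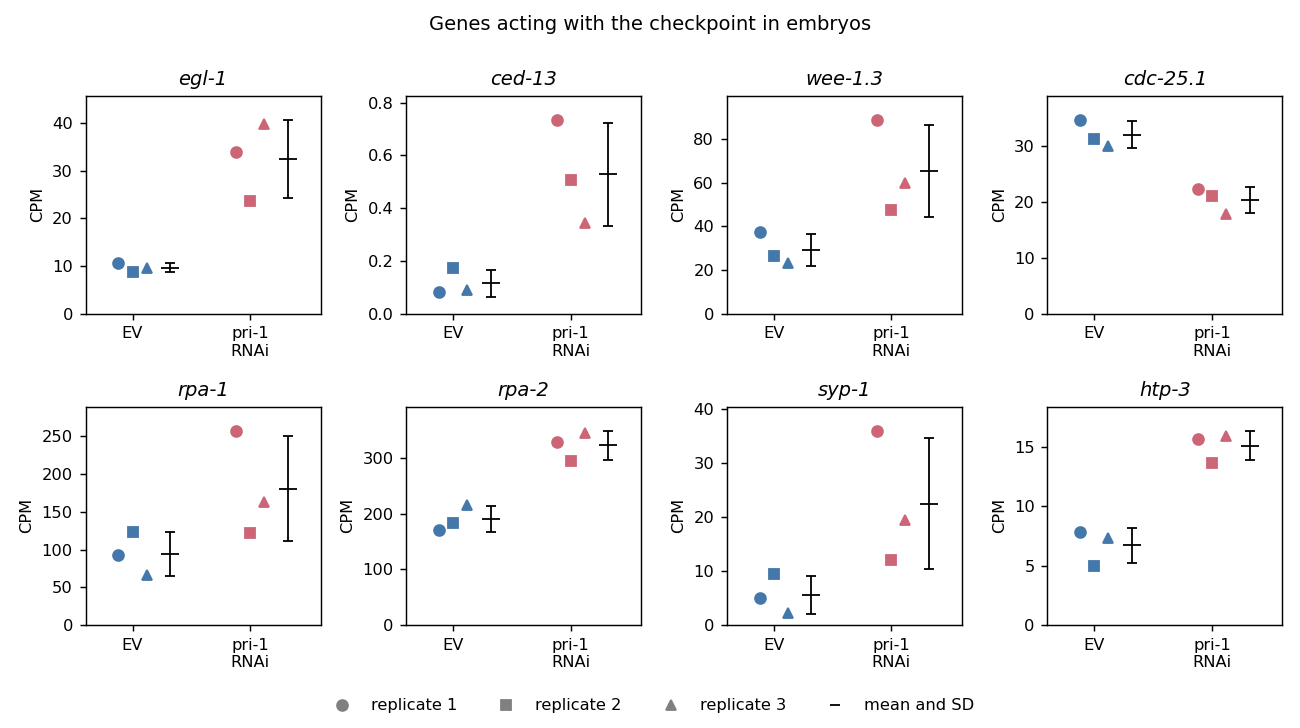
Deposited CPM (vertical axes from 0) of 8 genes acting with the checkpoint in the 3 EV (blue) and 3 *pri-1* RNAi libraries (red), with the mean and SD in black. *egl-1* stands at 8.74 to 10.6 CPM in EV and 23.6 to 39.8 CPM in *pri-1* RNAi embryos, *cdc-25.1* runs the other way, and only *rpa-1* has groups that overlap. The panels are a selection. Of the 57 tested genes of the lists, 16 lay above and 2 below without overlap, against 45.2% of all genes tested in either direction.

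Meiotic genes that work with CHK-2 were low, and 3 of 17 rose (*plk-2*, *htp-3* and *syp-1*) and 0 fell, against 17.3% and 9.94% of all genes. Their median log2 fold change was 0.51. *plk-2*, a Polo-like kinase of chromosome pairing, rose from 5.62 ± 1.86 to 14.3 ± 2.16 CPM, or 2.54-fold (limma adjusted p = 0.0312). *htp-3*, an axis protein gene, rose from 6.70 ± 1.49 to 15.1 ± 1.24 CPM (1.13 ± 0.32, limma adjusted p = 0.0354), and *syp-1*, which codes for a part of the synaptonemal complex, from 5.56 ± 3.59 to 22.5 ± 12.2 CPM (1.98 ± 0.58, limma adjusted p = 0.0395). The groups of these 3 genes did not overlap. *syp-1* lost its call without EV replicate 1 or any 1 of the *pri-1* RNAi replicates (adjusted p-values from 0.0586 to 0.171). *plk-2* and *htp-3* kept theirs only without EV replicate 3, the other fits giving 0.0521 to 0.211. *htp-3* also lost it under TMM (adjusted p = 0.0575). The pairing centre gene *zim-3* had an estimate of 1.31 that did not pass (limma adjusted p = 0.0602; edgeR adjusted p = 0.0190). The summed level of the 17 reached 126 CPM in EV and 183 CPM in *pri-1* RNAi libraries, and the sums overlapped between groups where *chk-2* did not.

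Of the 5 genes of other members of the ATM and ATR family and of the proteins that mature them, *trr-1*, the worm TRRAP, rose from 111 ± 19.9 to 208 ± 51.5 CPM (0.89 ± 0.25, limma adjusted p = 0.0344). Its call was kept without *pri-1* RNAi replicate 2 and lost in each other fit without a library (adjusted p-values from 0.0525 to 0.167), and under TMM it was lost too (0.0596). *ruvb-2*, which codes for an ATPase that helps this family to fold in other organisms, had 75.7, 96.4 and 78.0 CPM in EV and 196, 98.8 and 137 CPM in *pri-1* RNAi libraries (0.73, limma adjusted p = 0.0957). Its partner *ruvb-1* had an estimate of 0.36 (limma adjusted p = 0.261), and *smg-1*, the kinase of nonsense-mediated decay, one of -0.04 (limma adjusted p = 0.907), whose sign turned under 4 alternatives, median centring among them.

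**Figure D5:**
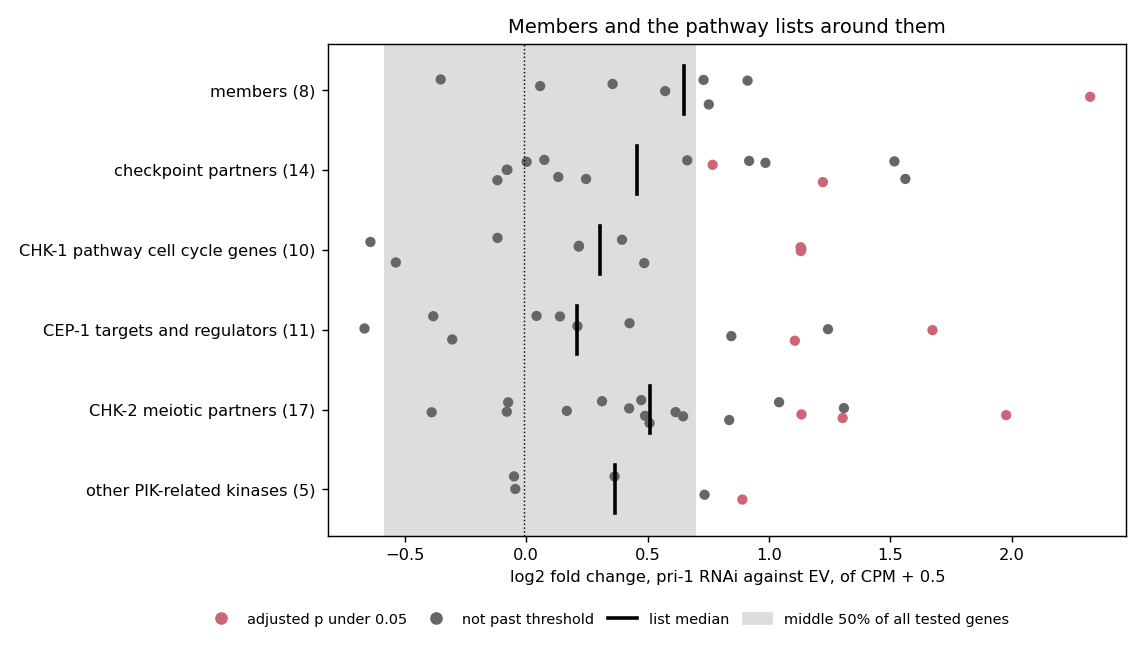
Log2 fold change, *pri-1* RNAi against EV on the CPM + 0.5 scale (horizontal axis), of each tested gene among the 8 (members) and the 5 lists around them (vertical axis, number tested in brackets), with adjusted p under 0.05 in red, the list median as a black bar and the middle 50% of all genes tested (-0.58 to 0.69) in grey. *chk-2*, at 2.32, is the point furthest to the right, and the medians of the lists lie between 0.21 and 0.51.

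As a description of pattern, the genes most like each of the 8 were sought by Pearson's r of log2(CPM + 0.5) over the 6 libraries among the 10204 genes that averaged 5 CPM or more. With so few libraries such values are high for many genes, so no test was attached. *chk-2* was most like H40L08.1 (r = 0.9993) and *fbxa-170* (r = 0.9990), and 84 genes had r above 0.99. *fbxa-170*, at 0.248 to 0.383 CPM in EV and 5.65 to 19.9 CPM in *pri-1* RNAi libraries, reached the mean of 5 CPM only through the latter. *chk-1* was most like *orc-3* (r = 0.9984), which codes for a subunit of the origin recognition complex, and *sup-26* (r = 0.9961), with 12 genes above 0.99. *atl-1* was most like *ccdc-47* (r = 0.9989) and *smgl-1* (r = 0.9981), *atm-1* like R02D3.7 (r = 0.9986) and Y108G3AL.2 (r = 0.9984), and *cep-1* like *pis-1* (r = 0.9986) and *fbxb-115* (r = 0.9974). *fbxb-115*, at 0.894 to 4.47 CPM in EV, also reached the mean of 5 CPM only through the *pri-1* RNAi libraries. Of the clamp genes, *hus-1* was most like F59A6.5 (r = 0.9983) and *vps-60* (r = 0.9971), *hpr-9* like *hmg-3* (r = 0.9988) and C16A3.2 (r = 0.9985), and *mrt-2* like F40G9.5 (r = 0.9949) and C01G10.7 (r = 0.9895). *mrt-2* had only 1 gene above 0.99.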

How the data were processed

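RNA-seq of N2 embryos fed through their mothers with EV or *pri-1* RNAi gave 6 libraries, 3 per group, sequenced as 150 bp paired-end reads from a kit that marks strand. Per the study's methods and the submitters' processing notes, reads were trimmed with Trimmomatic 0.36 and quantified with Salmon 1.4.0 against the WBcel235 transcriptome, and transcripts were summed to genes for testing with edgeR 3.32.1. The deposited values are CPM made by the authors, and each library sums to 1000000. Of the 19933 genes 166 were at 0 in every library. The study's test used read counts. Since the deposited values are CPM, the test here was limma 3.58.1 (R 4.3.3) on log2(CPM + 0.5) with a trended prior, group as the only term and no block, on genes that reached 0.5 CPM in no fewer than 3 libraries. The threshold was a Benjamini-Hochberg adjusted p of 0.05.

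Reads were recovered from the smallest step of each library's values. Up to 20 steps, 94.8 to 96.2% of values were whole within 0.1 of a step, and over all values 92.7 to 94.4%. Values at 2 steps were more frequent (160 to 651 per library) than values at 1 step (96 to 228). edgeR 4.0.16 (genes above 10 reads in no fewer than 3 libraries) and DESeq2 1.42.0 were run on these reads as alternatives, and both estimate the spread between libraries. All intervals given here came from limma. Floors that rest on reads cover counting error only. Other alternatives were pseudocounts of 0.1 and 1, no filter, a mean of at least 5 CPM, TMM, median centring, quantile normalization, 2 other variance models, replicate numbers as a block, an adjusted p of 0.01 and each library left out. The fitting steps were tested on simulated data. Deviations of libraries with the same replicate number from their group means had r of 0.04, -0.32 and 0.46, so the numbers were not taken to pair the libraries.

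The 8 genes, the 5 lists of genes acting with them and the 5 marker lists were chosen with earlier results of these data known. Named genes were the 8, from each list up to 4 genes of smallest p, *egl-1*, *ced-13*, *clsp-1*, *hpr-17*, *mus-101*, *cdc-25.1*, *wee-1.3*, *pri-1*, the sperm, early zygotic and late markers given by name, and the 2 genes most like each of the 8. These markers were chosen after their values were seen. Coordinates and exon counts came from Ensembl 115 on WBcel235, whose symbols matched 95.8% of the table's and all 8 genes. Of the 15 maternal and early genes 3 rose and 1 fell (over all genes tested, 17.3% were higher and 9.94% were lower). Of the 17 late genes 3 fell and *snb-1* rose, and of 8 early zygotic genes none fell. The early genes *end-3* and *tbx-37* and the late gene *rol-6* passed as higher, but met the filter only through the *pri-1* RNAi libraries, where they are high. Of the early zygotic genes no other passed, and of the 7 yolk and cuticle genes none passed. No marker was at 0 in all 6 libraries.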

Additional observations from a re-analysis of the deposited data

How the results depend on the processing

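Estimates were made under 19 alternatives, and under 18 for *chk-2* and *hus-1*, which a mean of at least 5 CPM removed. The stricter threshold of 0.01 bears on counts only. The estimates of the 8 genes kept their sign and side of the threshold in 135 cases, became significant in 7, lost significance in 1 and turned sign in 7. The number of the 8 called higher was 1 and became 0 with a mean of at least 5 CPM, a filter that *chk-2* did not pass, 3 under median centring (with *hus-1* at 0.96 and *cep-1* at 1.12), 2 under quantile normalization (with *cep-1* at 1.02), 2 with DESeq2 (with *cep-1* at 0.85) and 0 to 1 when a library was left out. None of the 8 was called lower under any setting. Over all genes, 2564 were higher. The number was 1059 at a mean of at least 5 CPM, 4255 with DESeq2, 1515 at an adjusted p of 0.01 and 295 to 2862 without a library. Those lower numbered 1471, and 2552 under quantile normalization, 2760 with edgeR, 3414 with DESeq2, 358 at 0.01 and 26 to 2955 without a library. Called genes were 63.5% higher, against 49.2% under quantile normalization, and the split was 55.8% with TMM and 71.7% with median centring.

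Replicate numbers as a block were tried in both numberings the labels give. The title numbers as a block gave 1 of the 8 higher, and 2110 genes higher and 1043 lower. In the lists it ended the calls of *rpa-2* (adjusted p = 0.0554), *brd-1* (0.0620), *plk-2* (0.0634), *htp-3* (0.0854) and *syp-1* (0.0543), leaving 0 checkpoint partners and 0 meiotic genes. The numbers in the library names pair only 2 libraries of each group, with r of 0.04 and 0.37. As a replicate block they let only those 2 pairs set the estimate, EV replicates 1 and 3 against *pri-1* RNAi replicates 1 and 2. EV replicate 2 and *pri-1* RNAi replicate 3 had no partner and did not enter it. This fit gave 4 of the 8 higher (*chk-2*, *atl-1* at 1.45, *hus-1* at 1.19 and *cep-1* at 1.25) and 4159 genes higher, with 7 checkpoint partners and 6 meiotic genes.

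Signs turned as follows, with the range over fits without a library first. The ranges were -0.72 to 0.01 for *atm-1*, -0.17 to 0.21 for *mrt-2*, -0.14 to 0.71 for *hpr-9*, -0.22 to 0.05 for *smg-1*, -0.76 to 0.59 for *clsp-1* and -0.08 to 0.24 for *hpr-17*. *atm-1* was 0.11 with the library number block and 0.01 without EV replicate 2. *mrt-2* was -0.01 with TMM, -0.11 with edgeR, -0.08 with DESeq2 and -0.17 without EV replicate 3, and *hpr-9* was -0.14 without EV replicate 3. *smg-1* was 0.17 with median centring, 0.07 with the library number block, 0.05 without EV replicate 1 and 0.03 without EV replicate 2. *clsp-1* was 0.13 with median centring, 0.06 with quantile normalization, 0.73 with the block, 0.59 without EV replicate 2, and 0.24 or 0.06 when *pri-1* RNAi replicate 2 or 3 was left out. *hpr-17* was -0.04 with edgeR, -0.00 with DESeq2 and -0.08 without EV replicate 3. Beyond the filter, which removes *chk-2* by its level, and the fits without a library, which have fewer samples, the cause was not tested.

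Over all 20 alternatives the checkpoint partners had 0 to 7 genes higher, the CHK-1 pathway genes 0 to 4 (and 0 to 2 lower) and the CEP-1 genes 0 to 3 (and 0 to 1 lower). The meiotic genes had 0 to 6 higher, and the list of other ATM and ATR family members and proteins that mature them 0 to 2. With 3 libraries per group, intervals were wide for genes whose EV libraries spread widely. Of the 8 genes *hus-1* and *chk-2* rested on the fewest reads, and *ced-13* and the sperm marker *spe-11* had lower means than both in either group.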
